A study of Mus musculus with 12 samples.

Results

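Trbv20, Trbv23, Trbv24, Trbv26, Trbv30 and Trbv31 are 6 V genes of the mouse T cell receptor β (Tcrb) locus, and they appear as V20, V23, V24, V26, V30 and V31 in the clonotype tables. The first 5 lie in the stretch of the locus from Trbv20 to Trbv30, upstream of the D, J and constant segments, and Trbv31 lies beyond the constant segments on the opposite strand. Trbv21 and Trbv29, annotated V genes of the same stretch, are not among the 6. The members were taken as the TRBC clonotypes whose V region carried 1 of these 6 names alone, out of 28 V regions named as single genes, and each of the 6 had at least 100 UMIs. They held 152019 of 1791590 TRBC UMIs (8.49%) and 83230 of 968766 listed TRBC clonotypes (8.59%). A UMI (unique molecular identifier) is a tag ligated to a cDNA molecule before amplification, and only UMIs with at least 3 reads were used. A clonotype is a CDR3 nucleotide sequence with its V and J names, counted once in each library that lists it.

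The libraries came from magnetically isolated CD8+ T cells of wild-type, tumor-bearing mice, taken from the tumor, the spleen and the tumor-draining lymph node (tdLN). The tumors were of the Q1-2 line, a model of head and neck squamous cell carcinoma. Mice received control IgG, IL-10-Fc (interleukin-10 fused to an antibody Fc part), αCSF1R (an antibody against colony-stimulating factor 1 receptor) or BF10 (a fusion of an anti-CSF1R antibody with IL-10), labelled as 30 mg/kg in 3 doses at intervals of 3 days. The methods of the study give each agent a dose of its own, so the labelled dose may not hold for every group. Each of the 12 combinations of treatment and tissue is 1 library of RNA pooled from 3 mice. A treatment therefore has no replicate within a tissue, and treatments are described with 95% Wilson intervals that cover counting error only. Tissues were compared over 4 libraries each, which differ in treatment. The titles of the tdLN libraries do not repeat the CD8 selection that their other labels give, and TCR libraries carry no CD8 transcript to check it by.

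A β chain is assembled when the recombinase joins a D to a J segment and then a V to the DJ segment. Each V gene ends in a recombination signal sequence, a heptamer and a nonamer set apart by a spacer, at which the recombinase cuts. Joining of an upstream V gene deletes the DNA between the segments, whereas Trbv31 points the other way and joins by inversion, which keeps the intervening DNA in the chromosome. The CDR3, the loop that contacts the peptide, runs from a conserved cysteine codon of the V gene across the junction to a phenylalanine codon of the J segment. The locus has a pair of D-J-C clusters, Trbj1 with Trbc1 and Trbj2 with Trbc2.

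The ends of the 6 genes are shown because they set the first residues of every CDR3 described here. In each line the lower case start is the germline CDR3 part of the V gene from its cysteine codon, and the capitals mark the heptamer and the nonamer with the spacer of 23 bases between them, read 5′ to 3′ on the coding strand of mouse GRCm38.
Trbv20 (chr6:41188964-41189016, + strand): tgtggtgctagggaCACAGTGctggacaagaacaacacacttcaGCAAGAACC
Trbv23 (chr6:41216510-41216565, + strand): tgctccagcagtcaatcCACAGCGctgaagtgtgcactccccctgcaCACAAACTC
Trbv24 (chr6:41218541-41218596, + strand): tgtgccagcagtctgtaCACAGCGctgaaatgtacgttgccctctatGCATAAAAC
Trbv26 (chr6:41227977-41228032, + strand): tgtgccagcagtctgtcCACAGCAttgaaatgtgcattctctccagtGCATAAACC
Trbv30 (chr6:41281977-41282029, + strand): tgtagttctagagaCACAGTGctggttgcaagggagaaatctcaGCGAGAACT
Trbv31 (chr6:41557654-41557706, − strand): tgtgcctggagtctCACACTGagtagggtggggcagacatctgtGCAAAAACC
Trbv20 and Trbv30 matched the consensus heptamer CACAGTG in all 7 bases, Trbv23, Trbv24 and Trbv31 in 6, and Trbv26 in 5. Against the consensus nonamer ACAAAAACC, Trbv31 matched in 8 of 9 bases, Trbv20 and Trbv26 in 7, Trbv24 in 6, Trbv30 in 5 and Trbv23 in 4. These matches describe the germline sequence and were not tested against use.

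**Figure D1:**
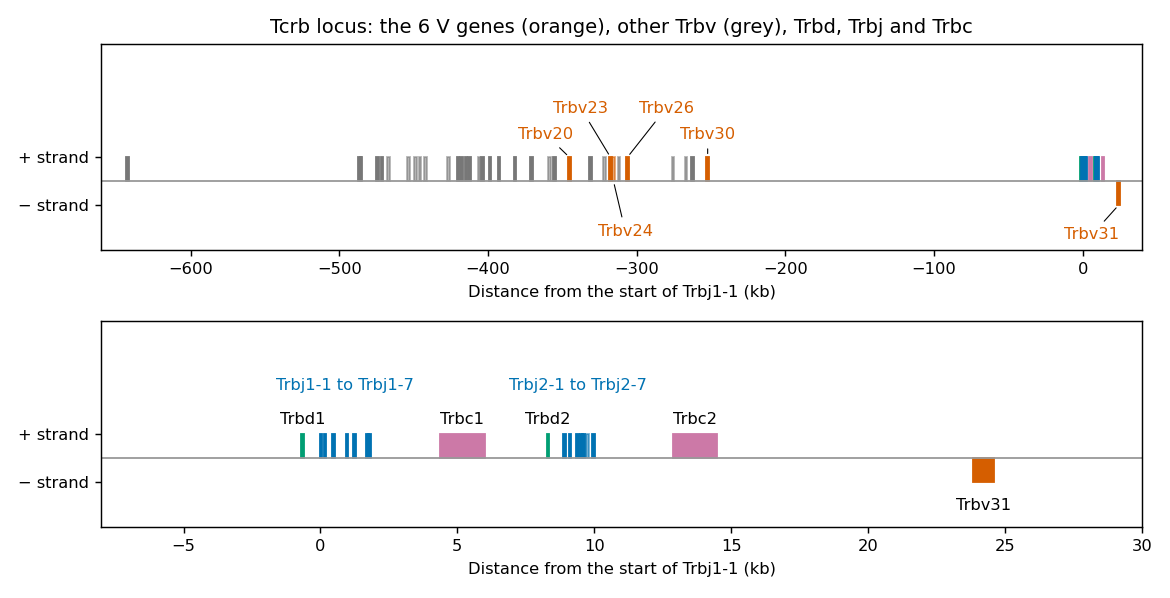
Positions of the annotated Trbv, Trbd, Trbj and Trbc genes on GRCm38 as distance in kb from the start of Trbj1-1 (horizontal axis), the whole locus above and the D, J and C segments below. Boxes above the line are on the + strand and those below on the − strand. Trbv31 is the single − strand V gene and lies 13.8 kb beyond Trbj2-7, whereas the other 5 genes (orange) lie 251.2 to 344.2 kb before Trbd1.

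The annotation lists 35 Trbv genes, of which Trbv31 alone is on the − strand. Trbv23, Trbv24 and Trbv26 are neighbours of similar sequence, with an identity of 75.2% between Trbv24 and Trbv26 and 74.4% in each of the other pairs over the last 250 bases of the V exon. Trbv20 and Trbv30 shared 53.2%, and every other pair 32.0% or less. Trbv24 is annotated as a pseudogene. Its reading frame has TAG, a stop codon, at the position of the second codon before the cysteine, where Trbv26 and Trbv23 have the tyrosine codon TAC. No other stop codon was found in the 34 or 35 codons read in each of the 6 genes. The clonotype tables give the CDR3 alone, which starts after this codon, so they do not show whether a Trbv24 transcript carried the stop.

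Depth differed between the libraries. TRBC UMIs ran from 32784 in the αCSF1R tumor to 210616 in the αCSF1R tdLN, so that 3 UMIs were 0.00142% to 0.00915% of a library. Libraries of control IgG and αCSF1R tumors listed few clonotypes, 9466 and 2493 against 54779 to 151480 in the other 10, with 11.0 and 13.2 UMIs per clonotype on average against 1.35 to 2.40. Of the UMIs in the αCSF1R and BF10 tdLN libraries, 10.4% and 8.26% had at least 7 reads, against 35.3% to 69.6% elsewhere. UMI shares mix the number of cells with the amount of receptor RNA per cell, which cannot be told apart in pooled RNA.

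Together the 6 genes took 9.73% to 10.8% of the TRBC clonotypes in the 4 tdLN libraries, 6.39% to 7.65% in the spleen libraries and 6.28% to 8.24% in the tumor libraries. These sums do not describe the whole stretch. Trbv29, which is not among the 6, had a mean of 8.14% in the tdLN and 12.5% in the spleen. Trbv21 had 0.0452% and 0.0333%. Trbv26 was the most used of the 6 over all libraries with 64923 UMIs (3.62% of TRBC), followed by Trbv31 with 33725 (1.88%), Trbv20 with 32094 (1.79%), Trbv23 with 12881 (0.719%), Trbv30 with 5674 (0.317%) and Trbv24 with 2722 (0.152%). All of them ranked in the lower part of the 26 V labels with at least 100 UMIs, from place 15 for Trbv26 to place 22 for Trbv24. For the tissues, the shares were compared by an exact permutation of the tissue labels within each treatment, on the variance of the 3 tissue means, with Benjamini-Hochberg adjustment over these 26 labels. The smallest p of this test is 0.00463. It passed the threshold of 0.05 for 19.2% of the labels in shares of UMIs and for 26.9% in shares of clonotypes. Among the 6 genes it passed for Trbv30 and Trbv31 in shares of UMIs and for Trbv23 and Trbv31 in shares of clonotypes. In Trbv20, Trbv23, Trbv26 and Trbv31 every tdLN library lay above every spleen library, in both measures, which was so for 30.8% of the 26 labels in each. With 4 treatments, a test of tdLN against spleen alone cannot give a p below 0.125. When any 1 treatment is left out, the smallest p is 0.0278 and no label passed in either measure.

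**Figure D2:**
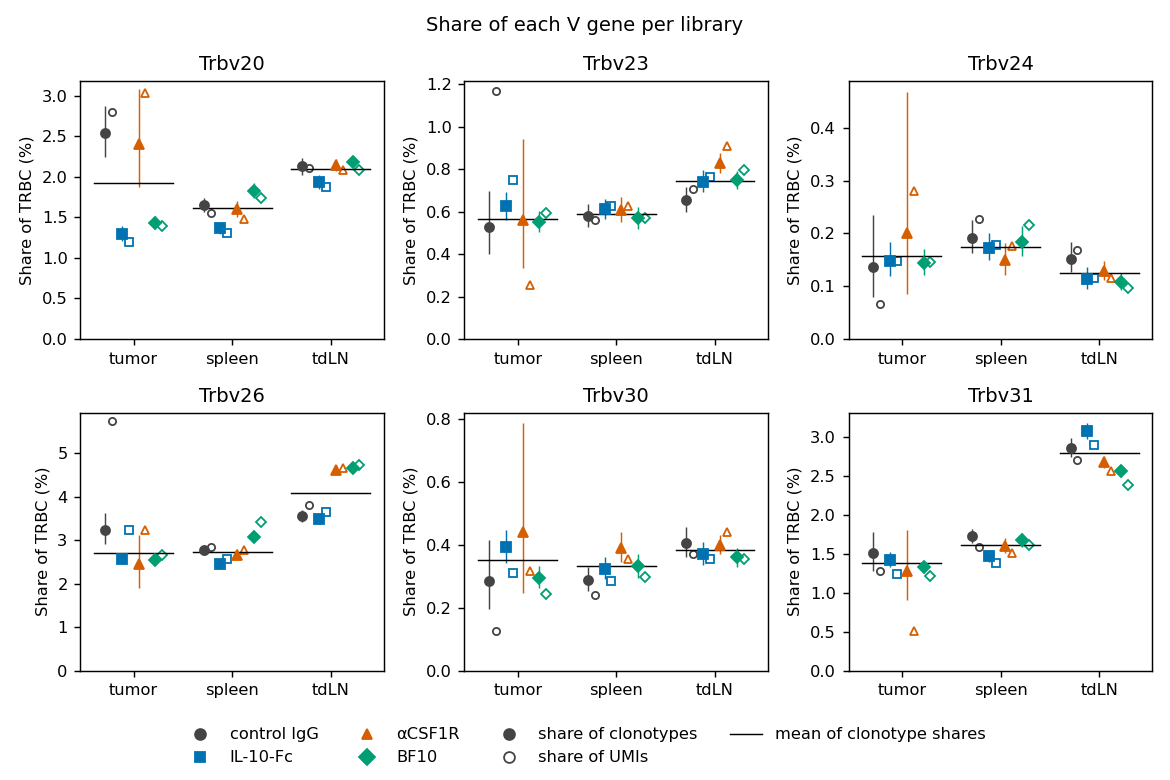
Share of TRBC clonotypes (filled, with 95% Wilson intervals) and of TRBC UMIs (open) in each library, in percent, for the 6 V genes by tissue. Symbols give the treatment and lines the mean clonotype share of the 4 libraries of a tissue. Trbv31 is above 2.5% of clonotypes in all 4 tdLN libraries and below 1.8% in all spleen and tumor libraries.

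Trbv31, the inverted V gene, showed the widest separation of the tissues among the 6. In the tdLN it took 2.87% of TRBC clonotypes with control IgG, 3.08% with IL-10-Fc, 2.68% with αCSF1R and 2.57% with BF10. In spleens the shares were 1.72%, 1.47%, 1.60% and 1.68% in the same order of treatments. In tumors they were 1.51%, 1.43%, 1.28% and 1.33%. Within every treatment the tdLN was highest and the tumor lowest, and the tdLN libraries did not overlap with the others. The mean share was 2.80% ± 0.225 in the tdLN, 1.62% ± 0.110 in the spleen and 1.39% ± 0.102 in the tumor (SD, n = 4 libraries each), a tdLN level 1.73 times that of the spleen. The test across tissues passed (adjusted p = 0.0344, exact permutation test). In shares of UMIs the means were 2.64% ± 0.220, 1.52% ± 0.104 and 1.06% ± 0.370, and the test passed with an adjusted p = 0.0481 (exact permutation test). Without the αCSF1R and BF10 tdLN libraries, which have few reads per UMI, the tdLN clonotype share was 1.84 times that of the spleen. The adjusted p was then 0.0722 by the same exact test with 10 libraries, and over the 14 alternatives tried for this share it ran from 0.0317 to 0.120.

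Between treatments, intervals of Trbv31 separated in the tdLN and the spleen. In the tdLN the interval for IL-10-Fc, 2.98% to 3.19% of clonotypes, lay above those for αCSF1R (2.60% to 2.76%) and BF10 (2.49% to 2.65%). In the control IgG tdLN it was 2.75% to 2.99%, overlapping those of IL-10-Fc and αCSF1R. The αCSF1R and BF10 tdLN libraries are also those with few reads per UMI, and the part of this in the difference was not tested. In the spleen IL-10-Fc was lowest, at 1.40% to 1.55%, below the intervals for control IgG (1.64% to 1.82%) and BF10 (1.59% to 1.76%). The αCSF1R tumor stood out in UMIs, with 166 UMIs or 0.506% (0.435% to 0.589%), against 1.21% to 1.27% in the other 3 tumors. Its clonotype share rested on 32 clonotypes and had an interval of 0.911% to 1.81%.

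CDR3s of Trbv31 had a median of 14 residues and began with CAWS in 75.3% of clonotypes, the residues of the germline end. The whole germline end was kept in 37.7% of them, more than for any of the other 5 genes (11.4% to 31.1%), with a median of 10 bases between the V and J parts. This end has 14 bases in Trbv31, Trbv20 and Trbv30 and 17 in Trbv23, Trbv24 and Trbv26. Only the values of Trbv20 (31.1%) and Trbv30 (19.6%) are therefore for ends of the same length. The clonotypes printed here are the largest in each tissue and the one listed in most libraries, with capitals for the bases that match neither the V nor the J germline end.
Trbv31-Trbj2-4, largest in tumors: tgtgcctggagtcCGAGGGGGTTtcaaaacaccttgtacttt
Trbv31-Trbj1-3, largest in spleens: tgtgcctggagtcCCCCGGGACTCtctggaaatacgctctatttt
Trbv31-Trbj1-2, largest in tdLNs: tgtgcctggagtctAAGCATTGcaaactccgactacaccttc
Trbv31-Trbj1-3, in most libraries: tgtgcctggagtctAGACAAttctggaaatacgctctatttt
The largest, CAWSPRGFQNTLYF, had 628 UMIs in the control IgG tumor, 47.4% of the Trbv31 UMIs and 0.604% of all TRBC UMIs there (0.558% to 0.653%), and was listed in no other library. The largest in spleens had 19 UMIs with control IgG. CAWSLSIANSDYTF had 36 UMIs in the control IgG tdLN and 2 in the control IgG spleen. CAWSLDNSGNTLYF was listed in 7 libraries with 1 to 5 UMIs each, all of them spleen or tdLN libraries. Of the listed Trbv31 entries, 8 with 15 UMIs together had a CDR3 field over 75 bases, up to 354, and 4 of these held Trbv26 exon sequence. These long entries were left out of the description of CDR3s.

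Trbv26 was the most abundant of the 6 in every library. In the tdLN it took 3.56% of clonotypes with control IgG, 3.49% with IL-10-Fc, 4.63% with αCSF1R and 4.66% with BF10. In spleens it took 2.77%, 2.44%, 2.67% and 3.07%, and in tumors 3.24%, 2.58%, 2.45% and 2.53%, in the same order. All 4 tdLN libraries lay above all spleen and tumor libraries. The means were 4.08% ± 0.645 in the tdLN, 2.74% ± 0.260 in the spleen and 2.70% ± 0.366 in the tumor (SD, n = 4 libraries each), and the tdLN level was 1.49 times that of the spleen. The test across tissues did not pass (adjusted p = 0.0648, exact permutation test), which does not show that the tissues were alike, and with UMIs of at least 7 reads it did (adjusted p = 0.0401 by the same exact test; 0.0401 to 0.181 over the 14 alternatives). The 2 highest tdLN libraries were those with few reads per UMI, and the part of this in the difference was not tested. Without them, the tdLN share was 1.29 times that of the spleen.

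In shares of UMIs, Trbv26 reached 5.75% in the control IgG tumor (5.61% to 5.89%), its highest value in any library, against 3.23% with IL-10-Fc, 3.24% with αCSF1R and 2.66% with BF10. The clonotype shares of these 4 tumors, at 2.45% to 3.24%, lay closer together. In the spleen BF10 was highest at 3.41% of UMIs (3.32% to 3.50%), above the intervals of the other 3 spleens. UMI shares of the 3 tissues gave no passing test (adjusted p = 0.354, exact permutation test).

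CDR3s of Trbv26 had a median of 14 residues, and 89.6% began with CASS. The largest clonotypes by tissue and 1 of those listed in most libraries were the following, with capitals for bases that match neither germline end.
Trbv26-Trbj2-7, largest in tumors: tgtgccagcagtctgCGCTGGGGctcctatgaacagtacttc
Trbv26-Trbj1-3, largest in spleens: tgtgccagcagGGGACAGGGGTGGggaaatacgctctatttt
Trbv26-Trbj1-3, largest in tdLNs: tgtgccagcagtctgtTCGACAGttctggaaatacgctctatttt
Trbv26-Trbj2-1, in most libraries: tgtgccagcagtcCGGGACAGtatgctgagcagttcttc
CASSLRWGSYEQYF was the largest clonotype of the 6 genes, with 1563 UMIs or 1.50% of TRBC in the control IgG tumor (1.43% to 1.58%), and it was listed nowhere else. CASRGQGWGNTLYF had 85 UMIs in the BF10 spleen and 21 in the BF10 tdLN, the same treatment. The largest of the tdLNs had 70 UMIs with IL-10-Fc. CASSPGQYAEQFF was 1 of 2 clonotypes listed in 9 of the 12 libraries, the one with more UMIs, with 1 to 8 in each.

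Another group of large Trbv26 clonotypes, chosen after its values were seen, encoded 1 and the same CDR3 of 45 bases with Trbj1-4 from different nucleotide sequences. The 4 sequences with at least 10 UMIs in a library are shown because they differ at 1 or 2 bases and were large in different tumors.
Trbv26-Trbj1-4, sequence A: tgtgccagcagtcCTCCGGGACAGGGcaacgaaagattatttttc
Trbv26-Trbj1-4, sequence B: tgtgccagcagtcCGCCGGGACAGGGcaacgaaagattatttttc
Trbv26-Trbj1-4, sequence C: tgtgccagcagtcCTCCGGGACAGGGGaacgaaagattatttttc
Trbv26-Trbj1-4, sequence D: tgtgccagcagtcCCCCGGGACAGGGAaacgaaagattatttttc
Sequence A had 1140 UMIs in the control IgG tumor, 9 in the IL-10-Fc tumor, 1 in the control IgG tdLN and 7 in the IL-10-Fc tdLN. Sequence B had 453 UMIs in the IL-10-Fc tumor and none elsewhere. Sequence C had 376 in the control IgG tumor and 1 in the IL-10-Fc tumor, and sequence D had 84 in the IL-10-Fc tumor and 3 in the IL-10-Fc tdLN. With every nucleotide sequence of this CDR3 counted, 17 in all, it took 1530 UMIs or 25.6% of the Trbv26 UMIs in the control IgG tumor and 563 or 13.4% in the IL-10-Fc tumor. It had 6 UMIs in the BF10 tumor, 3 in the BF10 spleen, 1 in the control IgG tdLN and 10 in the IL-10-Fc tdLN. In the other 6 libraries, the αCSF1R tumor among them, it was not listed. In the αCSF1R tumor a count of 0 allows a share of up to 0.00915% of TRBC UMIs, taken as 3 UMIs of the total (the 95% Wilson interval ends at 0.0117%). Of sequences 1 base apart, an error of reading and a separate rearrangement were not told apart here. Sequence B, with 453 UMIs in its own library, was not listed in the control IgG tumor, where sequence A had its 1140. Among Trbv26 clonotypes with at least 10 UMIs, 8 CDR3 residue sequences came from more than 1 nucleotide sequence, against 4 for Trbv20, 1 for Trbv23 and 0 for Trbv24, Trbv30 and Trbv31, out of 163, 75, 44, 7, 21 and 77.

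Trbv24, the annotated pseudogene close to Trbv26, was the rarest of the 6 and the only one of them with a lower share in the tdLN than in the spleen within every treatment. In the tdLN it took 0.152% of clonotypes with control IgG, 0.114% with IL-10-Fc, 0.129% with αCSF1R and 0.108% with BF10. In spleens it took 0.192%, 0.173%, 0.149% and 0.184%. The highest tdLN value was above the lowest spleen value, and in the tumors, at 0.137% to 0.201%, the shares rested on 5 to 130 clonotypes. The means were 0.126% ± 0.0198 in the tdLN and 0.174% ± 0.0186 in the spleen (SD, n = 4 libraries each), a ratio of 0.721. The test across tissues did not pass (adjusted p = 0.174, exact permutation test). In shares of UMIs the ratio was 0.622, with every tdLN library below every spleen library. The test across tissues did not pass there either (adjusted p = 0.427, exact permutation test).

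CDR3s labelled Trbv24 began with CASS in 88.4% of clonotypes, as those of Trbv26 do. The germline ends of these 2 genes share their first 16 bases and differ at base 17. Of 373 Trbv24 clonotypes that held the shared 16 bases, 50.7% had A at the next position, the base of Trbv24, and 23.6% had C, the base of Trbv26. Of 5199 such Trbv26 clonotypes, 7.50% had A and 73.3% had C. In the same library, 63 Trbv24 clonotypes (4.50%) were also listed with the same J and CDR3 under another V name, as were 1592 of Trbv26 (4.77%) and 0 of the other 4 genes. This count takes any other V name. With 63 such clonotypes of Trbv24, most of the 1592 of Trbv26 lay under names other than Trbv24. Which names these were, and the share over all V regions, was not worked out.
Trbv24-Trbj1-5, largest in tumors: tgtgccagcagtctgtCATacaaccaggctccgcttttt
Trbv24-Trbj2-2, largest in spleens: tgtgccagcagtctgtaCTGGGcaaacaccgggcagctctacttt
Trbv24-Trbj1-1, in most libraries: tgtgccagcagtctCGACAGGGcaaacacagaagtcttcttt
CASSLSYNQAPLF had 69 UMIs in the αCSF1R tumor, 75% of the Trbv24 UMIs there, and no other library listed it. The largest in spleens had 20 UMIs with αCSF1R, and no Trbv24 clonotype of a tdLN reached 10 UMIs. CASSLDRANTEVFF was 1 of 5 clonotypes listed in 2 libraries, the most for Trbv24, with 4 UMIs in the control IgG tumor and 3 in the αCSF1R spleen.

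Trbv23 was highest in the tdLN in shares of clonotypes. The tdLN shares were 0.655% with control IgG, 0.741% with IL-10-Fc, 0.827% with αCSF1R and 0.747% with BF10. In spleens they were 0.578%, 0.610%, 0.607% and 0.567%, and in tumors 0.528%, 0.624%, 0.562% and 0.551%. Every tdLN library was above every spleen and tumor library. The means were 0.742% ± 0.0700, 0.591% ± 0.0211 and 0.566% ± 0.0412 (SD, n = 4 libraries each), and the tdLN level was 1.26 times that of the spleen. The test across tissues passed (adjusted p = 0.0344, exact permutation test). Over the 14 alternatives this adjusted p ran from 0.0317 to 0.144. Shares of UMIs did not pass (adjusted p = 0.647, exact permutation test). They spread most in the tumors, from 0.256% with αCSF1R (0.207% to 0.317%) to 1.17% with control IgG (1.11% to 1.24%).

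The germline end of Trbv23 encodes CSSSQ, and 88.9% of its CDR3s, with a median of 14 residues, began with CSSS.
Trbv23-Trbj2-2, largest in tumors: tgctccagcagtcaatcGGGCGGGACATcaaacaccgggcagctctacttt
Trbv23-Trbj2-4, largest in spleens: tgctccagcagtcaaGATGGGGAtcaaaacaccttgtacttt
Trbv23-Trbj2-3, largest in tdLNs: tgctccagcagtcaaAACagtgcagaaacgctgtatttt
Trbv23-Trbj2-7, in most libraries: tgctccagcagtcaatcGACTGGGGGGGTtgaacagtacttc
The first had 823 UMIs in the control IgG tumor, 67.7% of the Trbv23 UMIs there and 0.791% of TRBC (0.739% to 0.847%), and 3 UMIs in the control IgG tdLN. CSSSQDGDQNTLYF had 14 UMIs in the control IgG spleen. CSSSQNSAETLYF had 67 UMIs in the BF10 tdLN and 20 in the αCSF1R tdLN. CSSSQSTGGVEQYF was 1 of 8 clonotypes listed in 3 libraries, all tdLNs, with 11, 1 and 1 UMIs.

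In tumors the share of Trbv20 differed between treatments. It took 2.54% of clonotypes with control IgG (2.24% to 2.87%) and 2.41% with αCSF1R (1.87% to 3.09%), against 1.30% with IL-10-Fc (1.20% to 1.39%) and 1.43% with BF10 (1.36% to 1.51%). The shares of UMIs split in the same way, 2.80% and 3.03% against 1.20% and 1.39%. The former 2 are the libraries that list few clonotypes, 240 and 60 of them with Trbv20, and whether the split came with treatment or with the makeup of these libraries cannot be told apart. In spleens the clonotype shares were 1.65% with control IgG, 1.37% with IL-10-Fc, 1.60% with αCSF1R and 1.83% with BF10. In the tdLN they were 2.13%, 1.93%, 2.14% and 2.18%, all above the spleens. The means were 2.10% ± 0.110 in the tdLN, 1.61% ± 0.189 in the spleen and 1.92% ± 0.643 in the tumor (SD, n = 4 libraries each), with a tdLN to spleen ratio of 1.30. The test across tissues did not pass (adjusted p = 0.263, exact permutation test).

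CDR3s of Trbv20 were short, with a median of 13 residues, and 67.8% began with CGAR, the residues of the germline end.
Trbv20-Trbj2-7, largest in tumors: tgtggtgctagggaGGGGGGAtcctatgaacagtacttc
Trbv20-Trbj2-4, largest in spleens: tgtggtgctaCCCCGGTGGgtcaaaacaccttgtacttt
Trbv20-Trbj1-3, largest in tdLNs: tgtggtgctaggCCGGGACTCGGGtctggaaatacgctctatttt
Trbv20-Trbj2-7, in most libraries: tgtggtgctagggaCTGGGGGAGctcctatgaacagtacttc
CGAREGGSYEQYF had 481 UMIs in the αCSF1R tumor, 48.4% of the Trbv20 UMIs and 1.47% of TRBC there (1.34% to 1.60%), and was listed in no other library. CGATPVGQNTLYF had 24 UMIs in the control IgG spleen and 3 in the control IgG tdLN. The largest of the tdLNs had 51 UMIs with αCSF1R. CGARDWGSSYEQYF was listed in 8 libraries with 1 to 9 UMIs each.

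Trbv30, the last V gene before Trbd1, passed the test across tissues in shares of UMIs. In the tdLN it took 0.371% of UMIs with control IgG, 0.354% with IL-10-Fc, 0.440% with αCSF1R and 0.355% with BF10. In spleens it took 0.239%, 0.285%, 0.356% and 0.299%, and in tumors 0.125%, 0.311%, 0.317% and 0.243%. The tdLN was the highest tissue within every treatment. The αCSF1R spleen lay above the 2 lowest tdLN libraries. The means were 0.380% ± 0.0406, 0.295% ± 0.0480 and 0.249% ± 0.0894 (SD, n = 4 libraries each), a tdLN to spleen ratio of 1.29. The test across tissues gave an adjusted p = 0.0481 (exact permutation test). Over 15 alternatives the adjusted p ran from 0.0344 to 0.481, and with UMIs of at least 7 reads it was 0.120 by the same exact test. Clonotype shares of Trbv30, with means of 0.385%, 0.334% and 0.353%, did not pass (adjusted p = 0.324, exact permutation test). The control IgG tumor was lowest in UMIs, at 0.105% to 0.148%, while its clonotype share of 0.285% (0.196% to 0.415%) overlapped those of the other tumors.

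CDR3s of Trbv30 had the lowest mean length of the 6 genes, 13.0 residues, and 66.4% began with CSSR.
Trbv30-Trbj2-4, largest in tumors: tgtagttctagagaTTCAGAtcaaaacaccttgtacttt
Trbv30-Trbj2-1, largest in spleens: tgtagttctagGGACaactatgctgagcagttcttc
Trbv30-Trbj2-5, largest in tdLNs: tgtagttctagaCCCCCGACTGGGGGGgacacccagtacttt
Trbv30-Trbj2-7, in most libraries: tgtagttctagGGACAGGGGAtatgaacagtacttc
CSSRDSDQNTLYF had 36 UMIs in the control IgG tumor and 1 in the control IgG spleen. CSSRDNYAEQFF had 11 UMIs in the αCSF1R spleen. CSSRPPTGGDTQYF had 78 UMIs in the αCSF1R tdLN, 8.42% of the Trbv30 UMIs there, and 1 in the αCSF1R spleen. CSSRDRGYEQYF was 1 of 2 clonotypes listed in 4 libraries, with 1 to 4 UMIs each. Of the Trbv30 entries, 4 with 1 UMI each had a CDR3 field over 75 bases.

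The 6 genes also differed in which J cluster they joined. Over the series, clonotypes with a Trbj1 segment were 22.6% of those of Trbv30, 30.5% of Trbv23, 35.1% of Trbv31, 37.1% of Trbv20, 39.1% of Trbv26 and 39.7% of Trbv24. In the V regions other than these 6 the share was 28.7% to 34.2% over the 12 libraries. Each V region was compared with all other TRBC V regions of the same library by a permutation of signs over the 12 libraries, two-sided, for the 21 V regions with at least 10 clonotypes in every library. The test passed for 61.9% of them, in both directions, so that a pass by itself is common here. Each V region is set against the rest, so it can also pass because other V regions differ. Libraries enter this test with equal weight, whatever their number of clonotypes. The tumor, spleen and tdLN libraries of a treatment share mice, so the 12 libraries are not independent. The test does not take this into account, and its p-values can be too small.

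**Figure D3:**
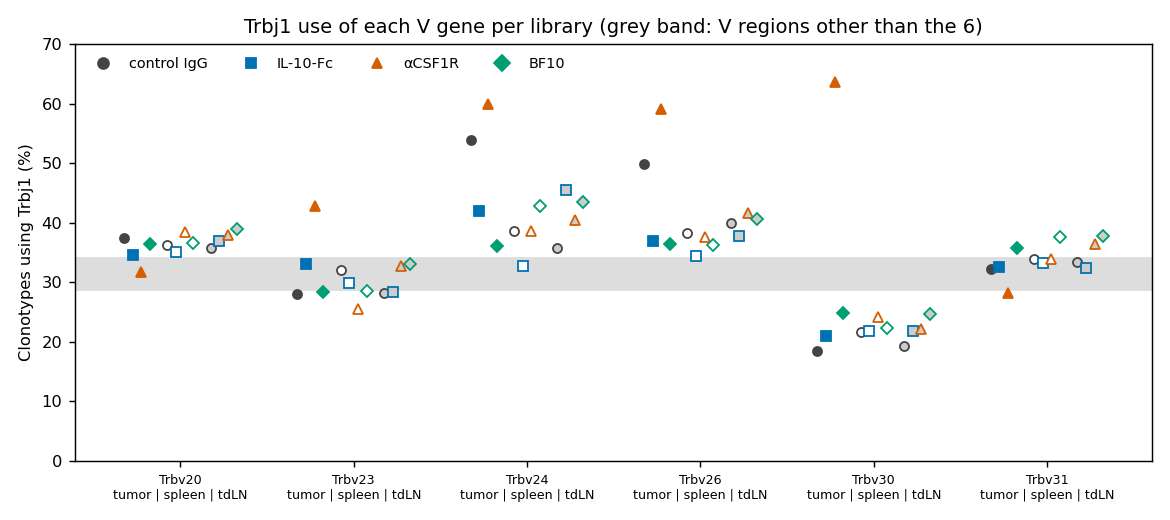
Share of clonotypes with a Trbj1 segment, in percent, for each V gene in the 12 libraries (filled symbols, tumor; white, spleen; grey, tdLN), with the range over libraries of the V regions other than the 6 as a grey band. Trbv26 is above the band in every library, whereas Trbv30 is below it in every library but the αCSF1R tumor, where it is at 63.6% of 11 clonotypes.

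Trbv26 joined Trbj1 more often than the other V regions did in 12 of 12 libraries. Its Trbj1 share was lowest at 34.5% in the IL-10-Fc spleen, 38.0% in the median and highest at 59.0% in the αCSF1R tumor. It was 9.57 ± 5.58 percentage points above that of the other V regions (SD, n = 12 libraries; adjusted p = 0.00171, permutation test). Trbv20 was higher in 11 of 12 libraries, with shares from 31.7% to 38.9% and a median of 36.5%, by 4.94 ± 2.86 points (adjusted p = 0.00228, permutation test). By UMIs in place of clonotypes the Trbv20 difference was 1.93 points and did not pass (adjusted p = 0.783, permutation test; 0.00103 to 0.783 over 15 alternatives). The αCSF1R tumor, where a single Trbj2-7 clonotype made up 48.4% of the Trbv20 UMIs, had 12.2% of its Trbv20 UMIs with Trbj1.

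Trbv31 was higher in 10 of 12 libraries, with shares from 28.1% to 37.8% and a median of 33.6%, by 2.51 ± 3.64 points (adjusted p = 0.0593, permutation test). Without the αCSF1R libraries the difference was 3.34 points and passed (adjusted p = 0.00955, permutation test; 0.00239 to 0.919 over 15 alternatives). In that setting 18 of 22 V regions passed, so a pass there is common. Trbv30 was lower in 11 of 12 libraries. Its shares were 18.5% to 24.8% in 11 libraries and 63.6% in the αCSF1R tumor, where 7 of its 11 clonotypes used Trbj1. The mean difference was -6.03 ± 11.3 points with this library (adjusted p = 0.123, permutation test). It was -9.33 points without the αCSF1R libraries, the setting in which 18 of 22 V regions passed (adjusted p = 0.00573, permutation test; 0.00239 to 0.693 over 15 alternatives). Trbv23 was on either side of the other V regions, at -0.60 ± 3.73 points (adjusted p = 0.624, permutation test). Trbv24 had 5 clonotypes in the αCSF1R tumor, too few for the main test. With a minimum of 1 clonotype it was higher in 12 of 12 libraries by 11.0 ± 6.52 points (adjusted p = 0.00160, permutation test). With this minimum 14 of 23 V regions passed.

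**Figure D4:**
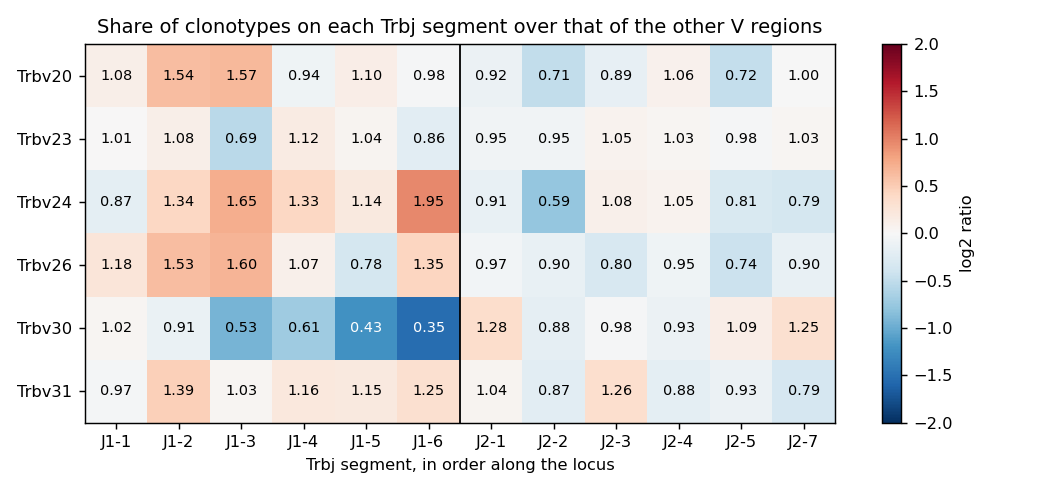
Share of each V gene's clonotypes on each Trbj segment, all libraries together, divided by the same share in the V regions other than the 6 (numbers are this ratio, colors its log2). Trbj1 segments are left of the line and Trbj2 segments right of it. Trbv30 falls from 1.02 at J1-1 to 0.35 at J1-6, while Trbv20, Trbv24 and Trbv26 are at 1.57 to 1.65 at J1-3.

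Single J segments showed more of these differences, given here as ratios to the share in the V regions other than the 6, over all libraries. In Trbv20 and Trbv26 the highest ratios were at Trbj1-2 (1.54 and 1.53) and Trbj1-3 (1.57 and 1.60). Trbv24 was at 1.34 and 1.65 for these segments and at 1.33 for Trbj1-4. Trbv31 was at 1.39 for Trbj1-2 and at 1.03 for Trbj1-3, and it used Trbj2-7 less (0.791). Trbv23 stayed within 0.862 and 1.12 but for Trbj1-3 (0.690). Trbv30 was at 1.02 for Trbj1-1 and at 0.526, 0.610, 0.431 and 0.346 for Trbj1-3 to Trbj1-6. Its Trbj1-6 share was 0.927% of clonotypes, with 0% to 1.53% in single libraries, against 2.28% to 3.06% in the V regions other than the 6. Trbv24 had its highest ratio at Trbj1-6, 5.22% of clonotypes or a ratio of 1.95, with a median of 4.78% over libraries. All 6 genes had their highest J share on Trbj2-7, from 16.5% in Trbv24 to 26.2% in Trbv30.

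In the tumors of control IgG and αCSF1R the largest clonotype took a greater part of its gene's UMIs than in the other libraries, for each of the 6 genes. In the control IgG tumor the largest clonotype of each gene took 16.1% (Trbv20) to 67.7% (Trbv23) of that gene's UMIs, and in the αCSF1R tumor 12.7% (Trbv31) to 75% (Trbv24). The BF10 tumor ranged from 0.558% (Trbv26) to 5.06% (Trbv20), and the IL-10-Fc tumor from 0.803% (Trbv31) to 10.8% (Trbv26). In spleens the range was 0.276% to 7.33%, and in the tdLN 0.357% to 8.42%. The same 2 tumor libraries had few clonotypes over all V regions. These percentages do not rank clonotypes by size, since some genes had few UMIs. In the αCSF1R tumor the largest of Trbv23, Trbv31 and Trbv30 had 15, 21 and 36 UMIs, of 84, 166 and 104. The largest of Trbv26 in the IL-10-Fc tumor had 453 UMIs, and that of Trbv20 in the BF10 tumor 123.

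**Figure D5:**
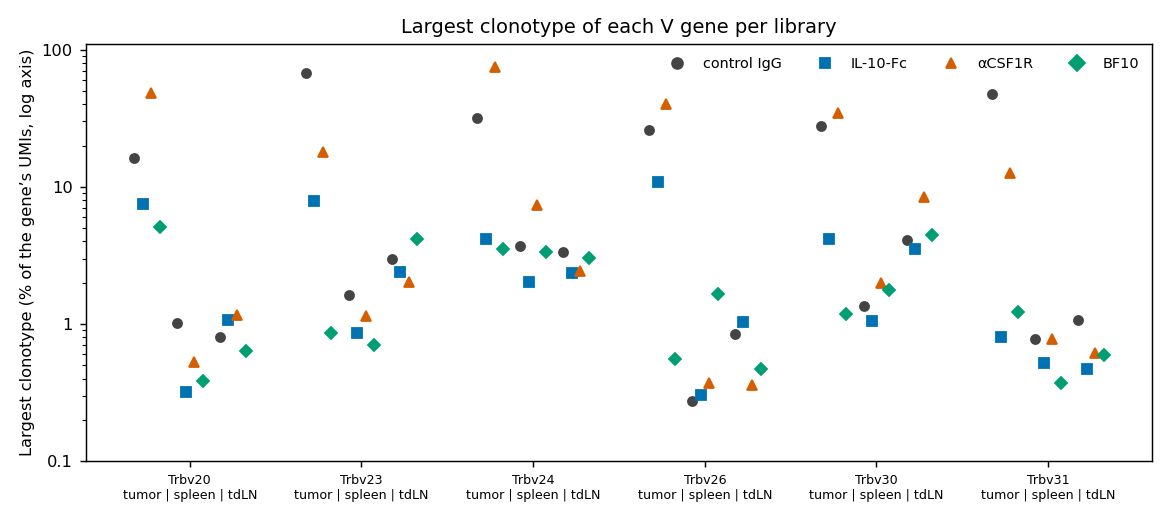
UMIs of the largest clonotype as a percentage of the UMIs of its V gene, on a log axis, in each library of tumor, spleen and tdLN. In the control IgG and αCSF1R tumors all 6 genes lie between 12.7% and 75%, and in the BF10 tumor none is above 5.06%.

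The share of distinct clonotypes listed in more than 1 library was lower in the rarer genes, except that Trbv20 lay above Trbv31. It was 6.05% for Trbv26, 4.82% for Trbv20, 3.65% for Trbv31, 2.17% for Trbv23, 1.68% for Trbv30 and 0.359% for Trbv24, against 7.47% over all TRBC. Of the 20 largest clonotypes of each gene in each tumor, or all where there were fewer, those of Trbv26 were listed in the tdLN of the same treatment in 21 of 80 cases, of Trbv20 in 9 of 80, of Trbv31 in 5 of 80, of Trbv23 in 5 of 74, of Trbv30 in 3 of 71 and of Trbv24 in 0 of 58. In the spleen of the same treatment they were listed in 5, 2, 6, 3, 1 and 0 cases. In the IL-10-Fc, αCSF1R and BF10 tumors, 7, 6 and 7 of the 20 Trbv26 clonotypes were listed in the tdLN of the same treatment and at most 1 in that of any other treatment. With control IgG the count was 1 of 20, and at most 1 in any other tdLN. This count was chosen after the data were seen and depends on the depth of the tdLN libraries. It was made for the 6 genes only. Whether these numbers differ from those usual among TRBC V regions is therefore not known.

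Over the 12 libraries, the V regions whose clonotype shares were ordered most like those of the 6 genes were found by Spearman's rho among 23 others. They were Trbv5 (0.97) and Trbv2 (0.80) for Trbv20, Trbv3 (0.87) and Trbv31 (0.69) for Trbv23, and Trbv16 (0.55) and Trbv14 (0.52) for Trbv24. For Trbv26 they were Trbv31 (0.84) and Trbv13-1 (0.81), for Trbv30 Trbv2 (0.66) and Trbv21 (0.58), and for Trbv31 Trbv1 (0.87) and Trbv26 (0.84). The shares of 1 library sum to a fixed total and come from the same RNA, so the points are not independent of each other.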

How the data were processed

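RNA of CD8+ T cells was made into QIAseq immune repertoire libraries with UMIs and sequenced for the CDR3 by the authors, whose portal assigned V region, J region and CDR3. The germline reference and error correction are not given in the sources used here. UMI counts per clonotype were deposited by the authors without normalization, as UMIs with at least 3 reads and with higher minimums up to 7. The deposited frequencies and ranks were not used. TRBC clonotypes were taken as listed. Germline ends and positions came from GRCm38 (the labels name mm10) with GENCODE annotation, and bases were matched inward from each end of the CDR3.

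Each V region's share of TRBC UMIs and clonotypes was computed per library. Tissues were compared by exact permutation within treatment over 1296 arrangements, and Trbj1 use by sign permutation over 4096 patterns, both with Benjamini-Hochberg adjustment at 0.05 over all V regions tested. On simulated data, the tissue test found V regions that differed across all 3 tissues but seldom those raised in the tdLN alone, so a result that did not pass says little, and the Trbj1 test also called unchanged V regions when others were shifted, since it compares each with the rest. Treatments have no replicates, and p-values measure the spread between these libraries only. Libraries of a treatment share mice, which the Trbj1 test leaves out of account. Intervals are Wilson 95% intervals. The named clonotypes are, per gene and tissue, the one with most UMIs in a library (at least 10) and the one listed in most libraries (of tied ones, that with most UMIs in all). The genes and comparisons were chosen with earlier results of these data known. Alternatives included UMIs with at least 7 reads, clonotypes with at least 2 UMIs, merging of CDR3s 1 base apart with a 10-fold difference in UMIs, rarefaction to 32784 UMIs and leaving out treatments. Scripts ran in Python 3.11.15 with scipy 1.17.1 for intervals, pandas 2.3.3 and numpy 2.4.6 for tables, and matplotlib 3.10.9 for plots.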

Additional observations from a re-analysis of the deposited data

Results flagged for a closer look

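The 4 libraries of a tissue differ in treatment, so a library that stands apart can be a treatment. Of 36 sets of 4 libraries, 4 had a highest or lowest library whose gap to the nearest passed Dixon's 95% critical value, and chance gives about 1 in 20. Trbv20 took 1.87% of tdLN UMIs with IL-10-Fc, below the other 3 tdLNs. Trbv31 took 0.506% of UMIs in the αCSF1R tumor, far below the other tumors. Trbv24 took 0.201% of clonotypes in the αCSF1R tumor, from 5 clonotypes, and Trbv26 took 3.24% of clonotypes in the control IgG tumor, both above the other tumors.

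In some genes all 3 treated libraries lay on one side of control IgG in 1 tissue and on the other side in another. The difference was not tested, and each comparison shares its control library. With 1 library per group such a pattern can arise by chance. How often it does, and how often other V regions show it, was not worked out. Trbv23 UMI shares averaged -0.636 percentage points against control IgG in tumors, where 1 clonotype held 67.7% of its control UMIs, 0.0455 in spleens and 0.118 in tdLNs. Trbv24 UMI shares averaged 0.126 points in tumors, -0.0370 in spleens and -0.0582 in tdLNs. Its clonotype shares averaged 0.0268 points in tumors, -0.0234 in spleens and -0.0355 in tdLNs. Trbv30 clonotype shares averaged 0.0909 points in tumors, 0.0592 in spleens and -0.0293 in tdLNs.

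Outside the comparisons, 4 V labels that join 1 of the 6 genes with other V genes held 74 clonotypes and 128 UMIs, of which the label for Trbv24 or Trbv26 held 64 and 117.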

How the results depend on the processing

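Of the 6 genes, 2 passed in each of the 3 tests. Over all V regions tested, 5 of 26 passed in shares of UMIs, 7 of 26 in shares of clonotypes and 13 of 21 in Trbj1 use. For shares of UMIs by tissue the number of the 6 genes was 1 with UMIs of at least 7 reads. It was 1 with clonotypes of at least 2 UMIs, and 3 of the 26 labels passed in each of these settings. It was 0 when any treatment was left out (range 0 to 0). It was also 0 without the control IgG and αCSF1R tumor libraries or without the αCSF1R and BF10 tdLN libraries, choices made after seeing the data. In none of these smaller designs did any label pass. For shares of clonotypes by tissue the number was 0 with clonotypes of at least 2 UMIs, where no label passed. It was 1 with CDR3s 1 base apart merged and 1 after rarefaction, and 6 of the 26 labels passed in each. It was 0 when any treatment was left out (range 0 to 0) and 0 without either pair of libraries, and again no label passed. Designs with 3 treatments or 10 libraries have fewer arrangements, 216 or 144, and smallest p-values of 0.0278 and 0.0139, which limits what can pass over 26 labels. The tdLN to spleen ratio kept its side of 1 in all 6 genes and in every alternative for both measures, at 1.62 to 1.84 for clonotypes of Trbv31. For Trbj1 use, with 5 of the 6 genes tested, the number was 5 of 6 tested without the αCSF1R libraries (range 2 to 5 over the treatments left out). It was 5 with spleen and tdLN libraries only, 5 without the 2 tumor libraries and 1 by UMIs. Over all V regions, 18 of 22 passed without the αCSF1R libraries and 20 of 24 with spleen and tdLN libraries only. Without the 2 tumor libraries 20 of 22 passed, and by UMIs 6 of 21. Passing was therefore common among all V regions wherever 5 of the 6 genes passed. The settings in which 5 passed leave out the αCSF1R tumor together with other libraries. Counting by UMIs weights large clonotypes in every library. The part of either in these numbers was not tested. The Trbv23 difference changed sign, to 0.15 points with merged CDR3s and to 0.10 points without control IgG (range -1.11 to 0.10 over the treatments left out), within its spread. Thinning to equal depth leaves expected UMI shares unchanged and widens their intervals only. The depth of the αCSF1R tumor limits Trbv24, Trbv30, Trbv23 and Trbv31, with 5, 11, 14 and 32 clonotypes. Treatment is already a block in the tissue test, and no replicate numbers could pair libraries further, since every group has 1 library.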
